A study of Mus musculus with 8 samples.

Results

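The epidermal growth factor (EGF) family ligands and ERBB receptors were examined in unsorted mammary cells of mice that had been pregnant and lactated (parous) and of virgin mice of the same age. The genes were chosen by name, with earlier results of these data known, as 10 members of the family. They were 7 ligands (Btc, Epgn, Ereg, Egf, Tgfa, Hbegf and Nrg1) and 3 receptors (Egfr, Erbb2 and Erbb3). Statements on the family refer to these genes, since not every ligand of the EGF receptor was analysed here. Each of the 10 was measured by 1 probe set that names no other gene, among 19935 genes on the array. Suspensions were prepared from the fourth mammary glands of FVB/NHanHsd mice and enriched for epithelial cells, and each of 4 parous and 4 virgin arrays held RNA pooled from 5 mice. The parous mice were mated at 42 days of age and lactated for 21 days, after which the labels give 28 days of involution and the methods 40 days between weaning and harvest. The labels name no transgene or drug in either group, and the sources used here do not give the estrous stage of these mice. According to the methods, glands of at least 5 mice were pooled as a control for the estrous cycle. Values are log2 expression values made by RMA, a procedure that corrects background, equalizes the arrays and combines the probes of a probe set, so that differences are on the log2 scale.

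EGF family ligands are made as membrane-anchored precursors that are cut from the cell surface by proteases and bind ERBB receptor tyrosine kinases on the same or neighbouring cells. The EGF receptor (Egfr) binds Egf, Tgfa, Btc, Epgn, Ereg and Hbegf, whereas the neuregulins bind Erbb3 and Erbb4. Erbb2 has no known ligand of its own and acts as the partner of the other receptors, and Erbb3 signals only through such a partner because its own kinase is weak. In the mammary gland this family is known for its part in ductal outgrowth at puberty and in lobuloalveolar development.

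Several epithelial markers gave a high signal. On every array the luminal keratin Krt8 stood above 99.8% of all probe sets. The actin Acta2, listed here as a basal and myoepithelial marker, stood above 99.5%. The fibroblast gene Dcn (99.1% on the lowest array), the endothelial gene Cdh5 (97.2%) and the macrophage gene Lyz2 (96.6%) were also bright on every array. Other markers of the same lists were dimmer. On their lowest arrays the luminal Krt7 stood at 86.1%, the basal Trp63 at 69.1%, the fibroblast genes Col3a1 and Fap at 77.6% and 46.5%, and the endothelial Kdr at 79.8%. Of 6 adipocyte markers, Fabp4, which endothelial cells also express, was bright (96.9 to 98.5%), and the other 5, Adipoq among them (at most 28.9%), stood above no more than 54.5% of probe sets. These ranks also depend on the probes and do not give the abundance of a cell type. Virgin replicates 2 and 4 stood apart. A score of 24 proliferation genes (the average of their log2 values after subtracting each gene's own 8-array mean) reached 1.20 and 1.71 there, against -0.21 and -0.25 in the other virgin arrays and -0.83 to -0.47 in the parous ones. The same 2 arrays had the lowest scores of T and NK cell markers (-0.63 and -0.65, against -0.39 to 0.84 on the other arrays) and of B and plasma cell markers (-0.96 and -0.89, against -0.16 to 0.91). Results on the family are therefore given with and without virgin replicates 2 and 4.

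Most of the family lay lower in parous suspensions, with Epgn, Nrg1, Ereg and Btc at the low end and Egfr at the other. Of the 10 genes, 8 had a log2 difference (parous minus virgin) below 0, 6 of them ligands and 2 receptors, and the median was -0.36 over the 10 genes, -0.56 over the ligands and -0.19 over the receptors, against 0.0016 over all probe sets. None of the 10 passed the criteria that the methods state (adjusted p below 0.05, more than 1.5-fold change and linear expression above 4 on average), which 0.397% of all probe sets passed. By limma's adjusted p alone 1 gene, Btc, was lower, as were 0.173% of all probe sets. At an unadjusted p under 0.05 in limma, 5 were lower (Btc, Epgn, Ereg, Nrg1 and Erbb3), against 6.14% of all probe sets, and 1 was higher (Egfr), against 5.26%. In 4 genes (Btc, Epgn, Erbb2 and Erbb3) the parous values were all below the virgin values, against 4.06% of all probe sets. Without virgin replicates 2 and 4, 8 differences were below 0, and 2 genes, Btc and Epgn, had an unadjusted p under 0.05 (3.47% of all probe sets). Because the members were listed with earlier results of these data known, these counts beside the shares are not a test of the family.

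**Figure D1:**
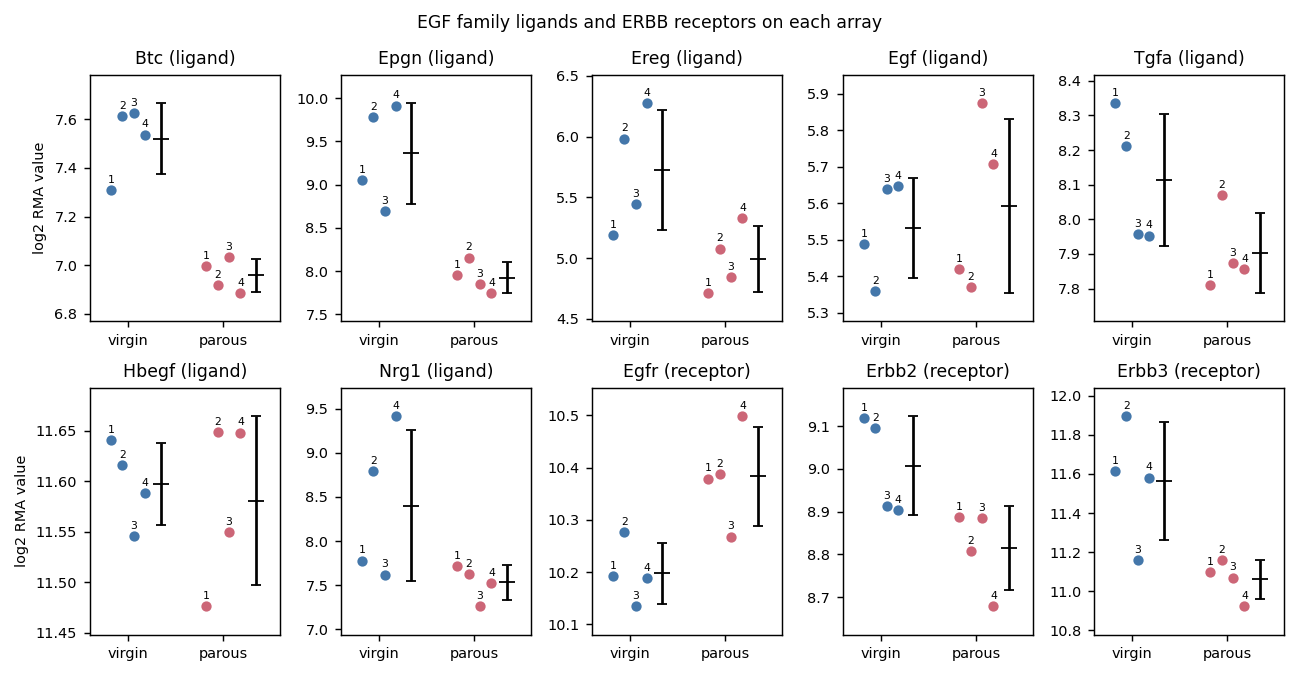
Log2 RMA values of the 7 ligands and 3 receptors on each of the 4 virgin (blue) and 4 parous (red) arrays, numbered by replicate, with the mean and SD of each group beside the points; each panel has its own vertical range. The parous arrays lie below all virgin arrays for Btc, Epgn, Erbb2 and Erbb3, while for Nrg1 virgin replicates 2 and 4 stand above the other 6 arrays.

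Btc (betacellulin), a ligand of the EGF receptor that also activates Erbb4, had the smallest adjusted p of the 10 genes. Its values were 6.997, 6.92, 7.03 and 6.89 in parous replicates 1 to 4 and 7.31, 7.61, 7.62 and 7.54 in virgin replicates 1 to 4. The highest parous array lay 0.27 below the lowest virgin array, and the groups were tight, with SDs of 0.069 and 0.15. The log2 difference was -0.56 with a standard error of 0.090, and limma gave an adjusted p of 0.046 and a 95% confidence interval of -0.77 to -0.36. This is 1.48-fold, short of the fold change criterion. The exact permutation test gave p = 0.029 (2-sided), the smallest that 4 arrays against 4 allow. Without virgin replicate 1, the lowest of its group, Btc passed the criteria at -0.63 (adjusted p = 0.030). Without any 1 other array its adjusted p was above 0.05 and reached 0.18, with the replicate number as a block it was 0.14, and without virgin replicates 2 and 4 the difference was -0.51 (standard error 0.11, adjusted p = 0.25).

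Epgn (epigen), an EGF receptor ligand known from epithelia, had the widest gap between the groups among the 10 genes. The parous arrays held 7.95, 8.16, 7.85 and 7.75 and the virgin arrays 9.05, 9.78, 8.698 and 9.92. Every parous array lay at least 0.54 below the lowest virgin array, and virgin replicates 2 and 4 were the highest. The log2 difference was -1.44 with a standard error of 0.26 (95% confidence interval -2.04 to -0.84), or 2.71-fold, and limma's adjusted p was 0.080. The exact permutation p was 0.029. Epgn thus exceeded the fold change criterion and missed that on the adjusted p, the reverse of Btc. It passed without virgin replicate 3 (-1.66, adjusted p = 0.022), whereas the adjusted p was up to 0.24 without another single array. Without virgin replicates 2 and 4 the difference was -0.95 (standard error 0.15, adjusted p = 0.091).

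Promoter sequences are shown for Epgn and Btc, the members with the smallest adjusted p values in limma. They are the 250 bases before the RefSeq transcription start in GRCm38.p6, on the strand of the gene, and 6 of the 10 members had such an entry. Epgn lies on the plus strand and its window is chr5:91027267-91027516. Btc lies on the minus strand and its window is chr5:91402995-91403244. Capitals mark matches to the motifs named after the sequences.
Epgn: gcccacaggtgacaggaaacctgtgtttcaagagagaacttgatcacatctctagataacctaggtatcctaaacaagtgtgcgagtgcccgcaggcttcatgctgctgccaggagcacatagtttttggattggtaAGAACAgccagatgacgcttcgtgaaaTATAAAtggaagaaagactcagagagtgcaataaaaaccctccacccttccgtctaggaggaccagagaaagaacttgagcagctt
Btc: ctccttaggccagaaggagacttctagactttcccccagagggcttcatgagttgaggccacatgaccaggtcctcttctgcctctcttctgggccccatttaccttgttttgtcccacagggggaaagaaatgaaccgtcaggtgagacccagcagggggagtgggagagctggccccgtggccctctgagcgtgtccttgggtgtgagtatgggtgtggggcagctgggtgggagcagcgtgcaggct

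The windows were searched on both strands for the TATA box (TATAAA), the AP-1 site (TGANTCA), the STAT site (TTCNNNGAA), the cyclic AMP response element (TGACGTCA), the palindromic estrogen response element, the hexamer of glucocorticoid and progesterone receptors (TGTTCT) and the GC box (GGGCGG). The Epgn window held a TATA box at -86 to -81 from the start, a motif found in 12.3% of 32536 promoter windows of this length, and the receptor hexamer on the opposite strand at -113 to -108, found in 16.0%. The shares for the AP-1 site, the STAT site, the cyclic AMP response element and the estrogen response element were 6.73%, 7.04%, 1.56% and 0.0645%. The Btc window held none of these motifs. The GC content was 46.8% for Epgn and 59.6% for Btc, and the windows of Tgfa and Egfr held GC boxes, which 33.0% of windows have. These matches are descriptions of the letters and not binding sites.

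Ereg (epiregulin), which binds the EGF receptor and Erbb4, was dim and stood above no more than 48.1% of probe sets on any array. Parous arrays had 4.71, 5.08, 4.84 and 5.33 and virgin arrays 5.19, 5.98, 5.44 and 6.28. The groups overlapped, because parous replicate 4 lay above virgin replicate 1, and the highest values were again those of virgin replicates 2 and 4. The log2 difference of -0.73 (standard error 0.24, adjusted p = 0.31 from limma) did not pass, and it was -0.33 (standard error 0.18, adjusted p = 0.81) without these 2 arrays.

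Nrg1 (neuregulin 1), a ligand of Erbb3 and Erbb4 and the only neuregulin in this set, varied widely among virgin arrays. Its values were 7.72, 7.62, 7.26 and 7.52 in parous suspensions and 7.78, 8.79, 7.62 and 9.42 in virgin suspensions. Virgin replicate 3 lay within the parous range, virgin replicate 1 just above it, and virgin replicates 2 and 4 far above. The log2 difference was -0.87 with all arrays (standard error 0.37, adjusted p = 0.42 from limma) and -0.17 without virgin replicates 2 and 4 (standard error 0.14, adjusted p = 0.90). The SD was 0.85 among virgin and 0.20 among parous arrays.

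The remaining ligands, Tgfa, Hbegf and Egf, did not pass the test. Tgfa (transforming growth factor alpha) ranged from 7.81 to 8.07 in parous and from 7.95 to 8.34 in virgin suspensions, with a log2 difference of -0.21 (95% confidence interval -0.46 to 0.040, adjusted p = 0.53 from limma). Hbegf (heparin-binding EGF-like growth factor), whose probe set stood above 97.1% of all on every array, ranged from 11.48 to 11.65 in parous and from 11.55 to 11.64 in virgin suspensions. Its log2 difference was -0.017, with a 95% confidence interval of -0.18 to 0.14, which leaves out a fold change of 1.5 in either direction. Egf itself was dim, at 36.6 to 43.5% of probe sets, with 5.37 to 5.87 in parous and 5.36 to 5.65 in virgin suspensions and a log2 difference of 0.060 (95% confidence interval -0.24 to 0.36). For these 3 ligands the groups overlapped.

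**Figure D2:**
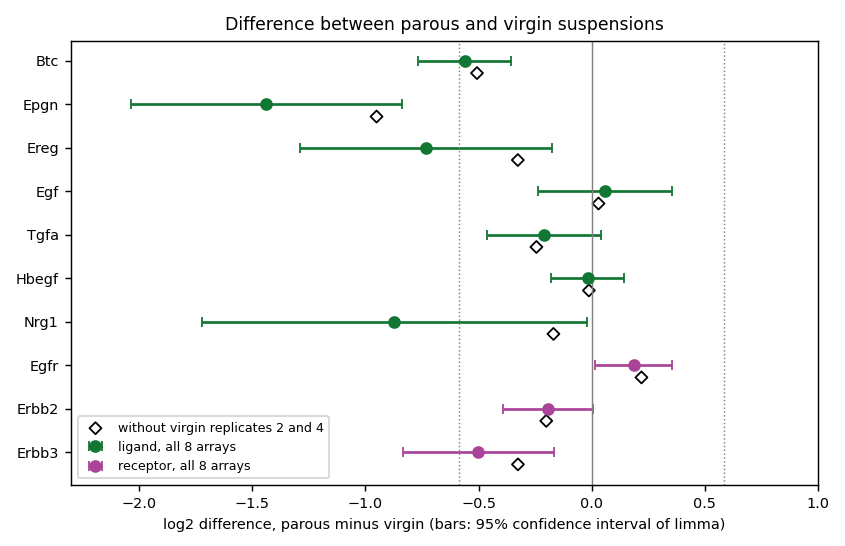
Log2 difference (parous minus virgin) of each ligand (green) and receptor (purple) with its 95% confidence interval from limma on all 8 arrays, and the same difference without virgin replicates 2 and 4 (open diamonds); dotted lines mark a fold change of 1.5. Leaving out both arrays moves Nrg1 from -0.87 to -0.17, Epgn from -1.44 to -0.95 and Ereg from -0.73 to -0.33, and Btc only from -0.56 to -0.51.

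Among the receptors, Egfr lay higher and Erbb2 and Erbb3 lower in parous suspensions, each by less than 1.5-fold and without passing the test. Egfr had 10.38, 10.39, 10.27 and 10.498 in parous and 10.19, 10.28, 10.13 and 10.19 in virgin arrays. Parous replicate 3 fell just below virgin replicate 2, so the groups overlapped (a gap of -0.0081). The log2 difference was 0.19 (95% confidence interval 0.014 to 0.36, standard error 0.075), with an adjusted p of 0.40 in limma, and 0.22 without virgin replicates 2 and 4.

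Erbb3, the kinase-impaired receptor of neuregulins, was bright, above 95.1% of all probe sets on the lowest array. It had 11.099, 11.16, 11.07 and 10.92 in parous and 11.62, 11.89, 11.16 and 11.58 in virgin arrays. The groups did not overlap, but the gap between parous replicate 2 and virgin replicate 3 was 0.0026. The log2 difference was -0.50, or 1.42-fold (95% confidence interval -0.83 to -0.17, standard error 0.15), with an adjusted p of 0.25 in limma, and -0.33 without virgin replicates 2 and 4 (adjusted p = 0.69). Erbb2, the shared partner receptor, had 8.89, 8.81, 8.89 and 8.68 in parous and 9.12, 9.09, 8.91 and 8.903 in virgin arrays. Its groups were 0.016 apart, and the log2 difference was -0.19 (standard error 0.087, adjusted p = 0.45 from limma), and -0.20 without these 2 virgin arrays. Another probe set is annotated to both Erbb2 and Sympk and was not counted as a member. It went the other way, with 10.32 to 10.93 in parous and 8.54 to 10.25 in virgin arrays (log2 difference 1.23, adjusted p = 0.20 from limma), and which of these genes it measured was not tested.

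Since RNA came from mixed cells, fewer cells of a type and less RNA per cell cannot be told apart. Markers of several cell types moved with the groups, and their part in the differences above was not tested. Over all probe sets, 6.14% were lower and 5.26% higher at an unadjusted p under 0.05 in limma. The mean of 10 pan-luminal markers, centred as above, was -0.24 to -0.08 in parous and 0.03 to 0.28 in virgin arrays, with 7 of the 10 lower and none higher at an unadjusted p under 0.05 in limma, although Krt8 had a log2 difference of only -0.17 (adjusted p = 0.41). For 9 hormone-sensing luminal markers the ranges were -0.62 to -0.18 and 0.02 to 0.58, with 5 lower and none higher. For 14 basal and myoepithelial markers they were -0.31 to -0.12 and 0.07 to 0.29, with 7 lower and none higher. The 7 were Krt5, Krt14, Krt17, Trp63, Cdh3, Itga6 and Lgr5. The contractile genes of this list had no unadjusted p under 0.05 in limma. Their log2 differences were -0.097 for Acta2, -0.098 for Tagln, -0.18 for Cnn1, 0.24 for Myh11 and 0.20 for Mylk. For 11 keratinocyte markers the ranges were -0.52 to -0.30 and 0.36 to 0.43, with 5 lower and none higher. The ranges overlapped for 8 luminal progenitor markers (0.02 to 0.17 in parous and -0.43 to 0.09 in virgin arrays), 9 fibroblast markers (-0.20 to 0.54 and -0.47 to 0.13), 11 endothelial and pericyte markers (-0.13 to 0.29 and -0.58 to 0.26) and 10 macrophage and dendritic cell markers (-0.20 to 0.28 and -0.25 to 0.16). At an unadjusted p under 0.05 the numbers higher and lower were 4 and 0 for luminal progenitor, 4 and 1 for fibroblast, 1 and 0 for endothelial and 1 and 1 for macrophage markers. The ranges also overlapped for 8 T and NK cell, 8 B and plasma cell, 6 adipocyte and 2 red blood cell markers, with medians of the log2 difference of 0.17, 0.57, 0.048 and 0.14, and not for 4 Schwann cell markers (0.02 to 0.30 and -0.39 to -0.10). Past the criteria were Wnt4 (hormone-sensing), Krt17 (basal), Sprr1a, Krt4 and Krt6a (keratinocyte), all lower, and the plasma cell genes Jchain, Tnfrsf17 and Derl3, all higher. In the same list of B and plasma cell markers the plasma cell marker Sdc1 was at -0.24 (adjusted p = 0.41 from limma, the 1 gene lower at an unadjusted p under 0.05, against 3 higher) and the B cell genes Ms4a1 and Pax5 at -0.42 and -0.18, so that 3 of the 8 differences were below 0. Of the 24 proliferation genes, 21 were lower at an unadjusted p under 0.05 in limma and none passed the criteria. This count used all 8 arrays. Among them, virgin replicates 2 and 4 had scores of 1.20 and 1.71, against -0.21 and -0.25 in virgin replicates 1 and 3.

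**Figure D3:**
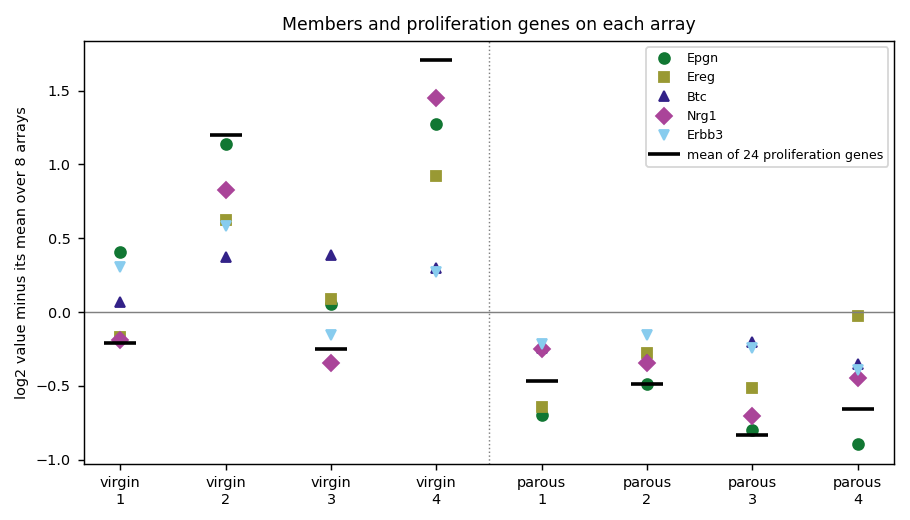
Log2 values of Epgn, Ereg, Btc, Nrg1 and Erbb3 minus their mean over the 8 arrays, by array, with the mean of 24 proliferation genes centred in the same way (black bars). Epgn, Ereg and Nrg1 are highest in virgin replicates 2 and 4, where the proliferation genes stand at 1.20 and 1.71, whereas Btc is highest in virgin replicate 3.

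The genes whose profiles over the 8 arrays came closest to those of Epgn, Btc and Nrg1 were found by the root mean square difference of centred log2 values. For Btc these were Egr3, an immediate early transcription factor of the EGR family (0.073), Serinc2 (0.091) and Reep6 (0.095). Egr3 had a log2 difference of -0.54 (standard error 0.11, adjusted p = 0.097 from limma). For Epgn they were Dcstamp, a transmembrane protein known from osteoclast fusion (0.083), Rps6ka6, a kinase of the ribosomal S6 kinase family (0.13), and the laminin chain Lama1 (0.16), with log2 differences of -1.44, -1.40 and -1.22, none of which passed (adjusted p = 0.059, 0.086 and 0.18 from limma). For Nrg1 they were Ncapg2, a condensin subunit (0.068), Stmn1, which destabilizes microtubules (0.079), and Chaf1b, a histone chaperone of replicating DNA (0.095). Like Nrg1, Ncapg2 was high in virgin replicates 2 and 4 (7.797 and 8.36) and lay between 6.16 and 6.70 on the other 6 arrays. All of these genes were picked for their likeness over the same 8 arrays. Their similar values and log2 differences therefore follow from the choice and are not separate results.

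Among the protein-coding genes with a probe set used here, Epgn, Ereg and Btc follow each other in this order on chromosome 5 (RefSeq annotation of GRCm38.p6). Genes without such a probe set were left out of this order and can lie between them. The 3 ligand genes had log2 differences of -1.44, -0.73 and -0.56. The gene before Epgn, Mthfd2l, an enzyme of mitochondrial folate metabolism, had a log2 difference of -0.0046 (adjusted p = 0.99 from limma), and Parm1, the gene after Btc, 0.11 (adjusted p = 0.82). Farther out, the chemokine genes Cxcl1 and Cxcl2 had differences of 0.82 and 0.67 (adjusted p = 0.12 for both) and Rchy1 and Odaph -0.068 and -0.15 (adjusted p = 0.89 and 0.62). Among the genes shown, the lowest differences were those of the 3 ligand genes. The stretch was chosen around Epgn and Btc for their adjusted p, so their low place in it follows from the choice. Ereg between them was dim and its groups overlapped. Of the other genes, Cxcl1 and Cxcl2 lay higher in parous suspensions (unadjusted p = 0.0013 and 0.0012 in limma). Mthfd2l, Parm1 and Rchy1 lay near 0, and Odaph at -0.15 had a dim signal. Differences between neighbours were not tested.

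**Figure D4:**
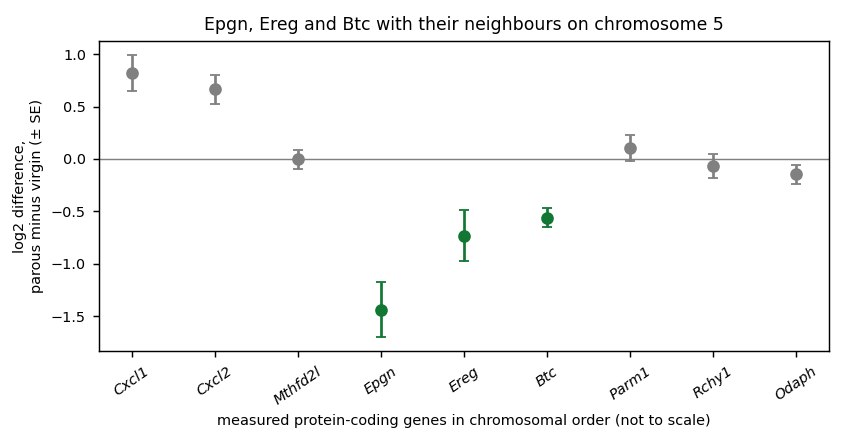
Log2 difference (parous minus virgin) with its standard error from limma for Epgn, Ereg and Btc (green) and the 3 nearest measured protein-coding genes on either side (grey), in chromosomal order and not to scale. The 3 ligand genes lie between -1.44 and -0.56, Mthfd2l at -0.0046 and Parm1 at 0.11.

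Further genes of the pathway showed no change that passed the criteria in limma. The counts below stand beside 6.14% of all probe sets lower and 5.26% higher at an unadjusted p under 0.05 in limma. Among Nrg2, Nrg3, Nrg4 and Erbb4, 3 of the 4 differences were below 0, none had an unadjusted p under 0.05, and the median was -0.21. Nrg2 had -0.27 and Nrg4 -0.21 (adjusted p = 0.68 and 0.51), and both were near 0 without virgin replicates 2 and 4, at 0.0034 and -0.081, whereas Erbb4 had -0.21 with all arrays and -0.26 without these 2. Of 13 genes of ligand shedding and trafficking, 2 were lower and none higher at an unadjusted p under 0.05, with a median of -0.015. These were Adam10, a protease that releases Egf and Btc from their precursors (log2 difference -0.42, standard error 0.088, adjusted p = 0.12), and the tetraspanin Cd9 (-0.34, standard error 0.095, adjusted p = 0.23). Of 20 negative regulators 1 was higher and 1 lower at that level, with a median of -0.05, and the largest differences were 0.29 for Spry4, an inhibitor of the ERK pathway, and 0.29 for Lrig3, a relative of the ERBB inhibitor Lrig1 (adjusted p = 0.61 and 0.27). Without virgin replicates 2 and 4 these were 0.0078 for Spry4 and 0.37 for Lrig3, and -0.48 for Adam10 and -0.28 for Cd9.
Of 33 listed adaptors and signal relay genes 27 were measured. At an unadjusted p under 0.05, 4 were lower and 1 higher, and 21 differences were below 0 with a median of -0.07. Grb7, an adaptor that binds Erbb2 and Erbb3, had a log2 difference of -0.62 with a standard error of 0.22 (adjusted p = 0.34), and of -0.23 without virgin replicates 2 and 4, and the kinase Src had -0.50 (standard error 0.11, adjusted p = 0.14), or -0.42 without them. Of 18 response genes of the ERK pathway, 2 were lower and none higher at that level, and the median was 0.012. These were Etv4, an ETS transcription factor (-0.80, standard error 0.18, adjusted p = 0.14), and Egr3, described above, with -0.51 and -0.44 when these arrays were left out. The immediate early genes Fos and Junb had differences of 0.30 and 0.27 (adjusted p = 0.56 and 0.51), and 0.043 and 0.063 without virgin replicates 2 and 4.

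**Figure D5:**
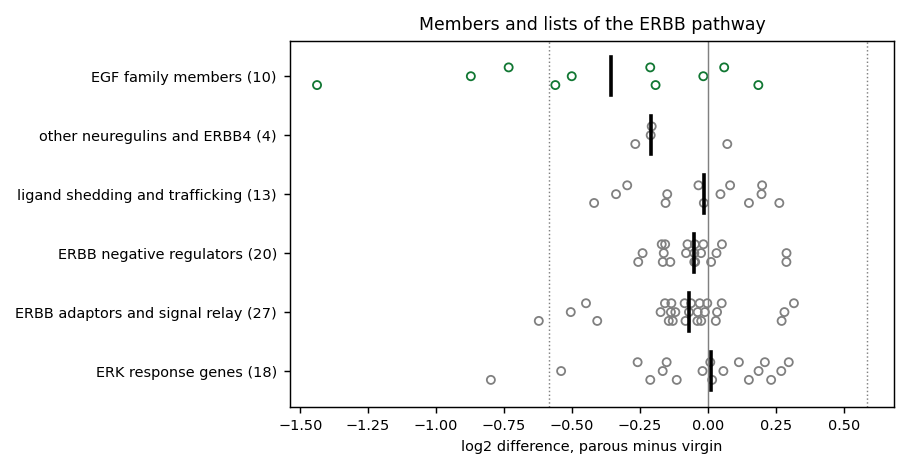
Log2 difference (parous minus virgin) of every measured gene of the family (green) and of 5 lists of the ERBB pathway (grey), with the number of genes in brackets and the median as a black bar; dotted lines mark a fold change of 1.5, vertical scatter of the points has no meaning, and no gene passed the criteria. The median of the family is -0.36 and those of the lists lie between -0.21 and 0.012.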

How the data were processed

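Total mammary cell suspensions from 4 parous and 4 virgin pools, each of 5 mice, were profiled on Affymetrix Mouse Gene 1.0 ST arrays. The deposited log2 values were made by the authors with rma() of the R/Bioconductor affy package. Their number of arrays limits the precision. The labels call the arrays biological replicates.
Probe sets were named through the array annotation. Of 34760, 21640 named 1 gene, 1321 several and 11799 none here; 21553 took a current symbol through the gene identifier, 3 through an accession and 84 kept the old one. Groups were compared with limma 3.58.1 in R 4.3.3 (lmFit, eBayes, no covariate, 2-sided), and p-values of all 34760 probe sets were adjusted by Benjamini-Hochberg. Single genes were also tested by exact permutation of the arrays. The fit was also run on simulated arrays with independent normal noise and changes larger than those of any member. That run does not cover changes of the members' size or outlying arrays. For genes with several probe sets, lists use the one of highest mean. A percentage given for the brightness of a gene is the share of probe sets at or below it on the same array.
Members and 20 gene lists were chosen with earlier results of these data known, as were the motifs. Named genes are all members, the genes of each pathway list that passed or the 2 with the largest difference, 3 chromosomal neighbours on each side and the 3 nearest profiles of members with an adjusted p under 0.1 (nearest profiles also for Nrg1), and markers. Fos and Junb were named after their values were seen. The alternatives are given in the closing section.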

Additional observations from a re-analysis of the deposited data

How the results depend on the processing

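Under 20 alternatives (19 for Ereg) the direction of Btc, Epgn, Ereg, Tgfa, Nrg1, Egfr, Erbb2 and Erbb3 was kept. The log2 difference could move only where arrays were left out or weighted, or where values were renormalized or centred. The replicate block, the other tests, the probe set filters and the changed criteria leave it the same by construction, so they do not test the direction. Egf and Hbegf, both near 0, changed sign: with 1 array left out Egf ranged from -0.034 (without parous replicate 3) to 0.13 and Hbegf from -0.040 to 0.018 (without parous replicate 1), and Hbegf was 0.0017 with quantile normalization applied again. The number of members past the criteria, 0 with all arrays, was 0 to 1 with 1 array left out and 1 without dim probe sets (Epgn, adjusted p = 0.041), 1 with only probe sets that name 1 gene (Epgn, adjusted p = 0.045) and 1 with no fold change criterion (Btc). Fewer probe sets enter the adjustment in the first and second of these, which also drop Ereg and Egf (dim) in the first. Over all probe sets 138 passed, 42 to 179 with 1 array left out, 11 with a plain t-test, 26 when limma's treat tested for more than 1.5-fold and 100 without virgin replicates 2 and 4. The methods name limma for the arrays and an unpaired t-test for comparisons in general. By this t-test at an unadjusted p under 0.05 with the other criteria 797 probe sets passed, 2 of them Epgn and Ereg, and after Benjamini-Hochberg adjustment no member did. With the replicate number as a block (replicate block) 49 probe sets and no member passed, and the adjusted p of Btc was 0.14 and that of Epgn 0.14. For Btc it was 0.057 with trend and robust estimation and 0.12 with the plain t-test, and 0.032 to 0.043 with renormalized values, median centring or array weights. Deviations from the group means had r over 0.1 in 3 of 4 same-numbered pairs of arrays (r from -0.057 to 0.31 over probe sets). Pairs of different numbers ranged from -0.26 to 0.19, and 4 of 8 arrays correlated best with their own number. The study describes 4 experiments that each took 5 virgin and 5 parous mice, but no source used here ties the replicate numbers to them, so whether same-numbered arrays are pairs is unsettled. Between same-numbered arrays Ereg, Nrg1 and Tgfa, whose groups overlap, were lower in 4 of 4 and Egfr higher in 4 of 4. The share of all probe sets with such counts was not computed, so these counts are not read as support. The block moved the adjusted p of Ereg in limma from 0.31 to 0.12. In gene lists, taking the probe set with the largest change altered no count. Dim signals limit Ereg and Egf.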
